A study of Mus musculus with 18 samples.

Results

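The 10 genes described here encode the pathway that displays peptides on MHC class I molecules: H2-K1, H2-D1, B2m, Tap1, Tap2, Tapbp, Psmb8, Psmb9, Psmb10 and Nlrc5. They were chosen by name, with earlier results of these data known, and all 10 were found among the 55450 rows of the gene table and among the 21161 genes with enough counts to be tested. Their RNA was measured by poly(A) RNA sequencing in mouse embryonic fibroblasts (MEF cells) of a line from ATCC. The cells were transfected with 1 of 3 plasmids using a Lipofectamine lipid reagent, at 1 pmol of DNA per ml, and after 6 h were left untreated or given TGF-β, a cytokine that drives collagen synthesis, at 20 ng/ml for 24 h. The plasmids were the empty pcDNA3 vector, Col1a1-miR-29b, in which a rat Col1a1 (collagen 1a1) promoter drives human miR-29b-1, and CMV-miR-29b, in which the cytomegalovirus promoter takes its place. Both miR-29b plasmids also carry EGFP and mRFP1, the latter behind an SV40 promoter, which the empty vector lacks. The stated DNA mass was about 5 µg/ml for Col1a1-miR-29b and about 3 µg/ml for CMV-miR-29b, so plasmid sequence, promoter and DNA mass cannot be told apart. Each of the 6 groups had 3 libraries, lettered c, d and e, or c, d and f in both Col1a1-miR-29b groups. The study describes 3 repeated experiments a group, while the labels do not say which libraries came from which experiment or culture, so p-values measure the spread between these libraries.

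The libraries held 65898017 to 80332633 counts, and replicate libraries within a group correlated at r = 0.9748 to 0.9809 across genes. Counts of Mir29b-1, the mouse precursor gene, were 0 in all 6 empty vector libraries, 0 to 1 in Col1a1-miR-29b cells, 2 to 6 with TGF-β, 110 to 309 in CMV-miR-29b cells and 203 to 293 with TGF-β, although poly(A) libraries do not measure the mature microRNA. Of 12 fibroblast markers, 10 had a median of at least 1 CPM (counts scaled to equal library totals). Among the other 2, Lum was at 0 in all 18 libraries and Thy1 at 0 in 14. Of 14 immune cell markers 2 reached that level, Cd68 and Lyz2, while Cd8a, Ms4a1 and Ncr1 were at 0 in every library. 

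MHC class I molecules show fragments of the cell's own proteins, and of viral proteins, to CD8 T cells. The proteasome cuts proteins into peptides, and its subunits Psmb8, Psmb9 and Psmb10 replace the standard catalytic subunits Psmb5, Psmb6 and Psmb7 in the immunoproteasome. The Tap1 and Tap2 proteins pump the peptides into the endoplasmic reticulum, and tapasin, the product of Tapbp, holds the transporter next to an empty heavy chain of H2-K1 or H2-D1 paired with B2m. Nlrc5 is a transactivator of class I genes, and most of these genes are induced by interferons through factors of the STAT and IRF families. Factors of the NF-κB family also act on class I genes.

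Mature miR-29b-3p pairs with targets through its seed, bases 2 to 8, shown in capitals in the RefSeq sequence.

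mmu-miR-29b-3p: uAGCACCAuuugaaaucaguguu

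The match to this seed, TGGTGCT, was found in the annotated 3′ UTR of 0 of the 10 genes, against 2257 of 14361 tested genes with a UTR, or 15.7%. The longest annotated UTR of each of the 10 ran from 55 bases in Psmb10 to 1197 bases in Nlrc5. The share over all genes was not adjusted for UTR length.

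The promoters were read because members moved together between plasmids. The RefSeq table (GRCm38.p6) held windows of 300 bases, from 250 before to 50 after the start, for 8 of the 10 genes, the exceptions being Tap2 and Nlrc5. Searched on both strands were the interferon-stimulated response element (ISRE: GAAA, any 2 bases, GAAA), the STAT-binding GAS element, an NF-κB element and the cyclic AMP response element core TGACG. These are present in 3.44%, 8.3%, 4.51% and 20.8% of all 32851 windows. The B2m promoter held an ISRE, NF-κB letters on the opposite strand, and TGACG. The sequence upstream of its start, chr2:122147537-122147685 on the plus strand, is shown with the ISRE and the NF-κB match in capitals, in that order.

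B2m: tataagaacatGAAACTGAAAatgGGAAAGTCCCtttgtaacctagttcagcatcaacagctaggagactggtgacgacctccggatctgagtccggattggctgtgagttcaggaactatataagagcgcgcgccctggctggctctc

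H2-K1 (chr17:34000438-34000467, minus strand) and H2-D1 (chr17:35262914-35262943, plus strand) shared an NF-κB match, in capitals, in a stretch where 105 of 110 aligned bases were identical (95.5%).

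H2-K1: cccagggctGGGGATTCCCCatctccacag

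H2-D1: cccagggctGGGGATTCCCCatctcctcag

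The Psmb8 window held a GAS match, in capitals, at chr17:34198088-34198116 on the plus strand. This stretch precedes the RefSeq start at 34198195 but likewise lies inside the annotated gene, which begins at 34197721.

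Psmb8: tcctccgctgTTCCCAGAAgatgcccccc

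TGACG was also present in the windows of H2-K1, H2-D1, Tap1 and Psmb9, the last 2 of which overlap on opposite strands and share the same letters. None of the 4 elements was found in the windows of Tapbp and Psmb10. A match describes the letters and is not evidence that a factor binds.

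The members differed widely in level. By FPKM (fragments scaled to transcript length and library size), which corrects for length and was used from 16 libraries, B2m had a median of 1480, H2-D1 583.9 and H2-K1 183.9. The loading genes were lower, at a median of 35.79 for Tapbp, 17.38 for Tap1 and 9.706 for Tap2. Psmb10 and Psmb8 had medians of 15.39 and 11.55, and Nlrc5 and Psmb9 were the lowest, at 5.692 and 5.557 FPKM. The ranges of the 3 most abundant did not overlap, with 1218 to 1784 for B2m, 467 to 676.8 for H2-D1 and 139.9 to 300.4 for H2-K1.

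**Figure D1:**
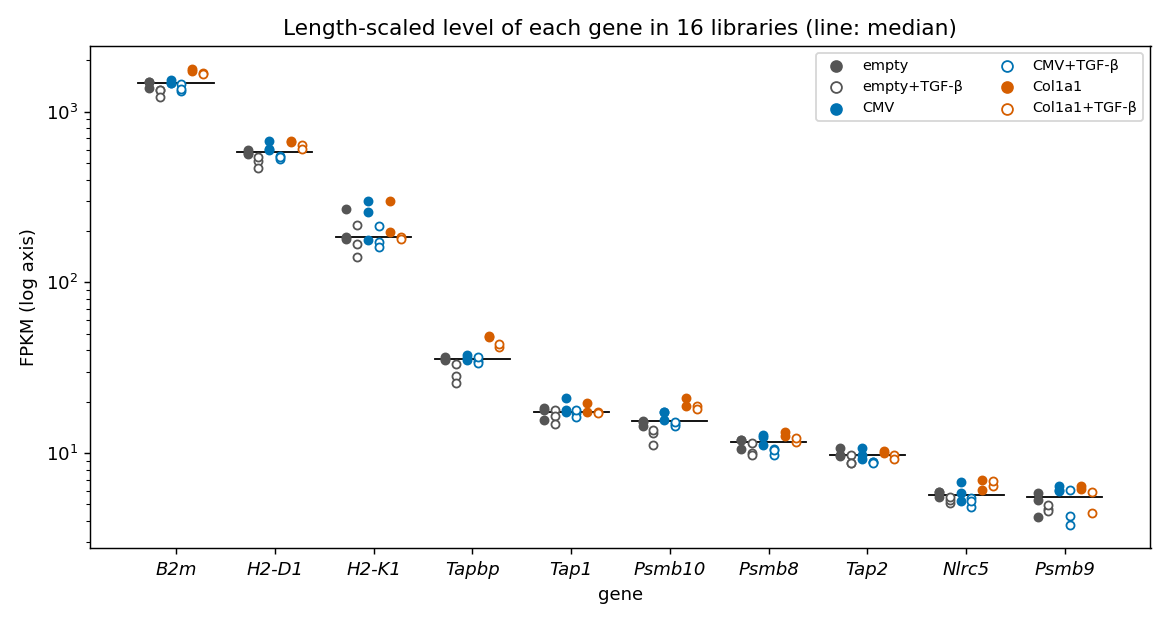
FPKM of the 10 genes in the 16 libraries with FPKM values, on a log axis, with 1 point for each library, a colour for each plasmid, open points for TGF-β and a line at the median. B2m, with a median of 1480 FPKM, lies far above Psmb9, at 5.557, and the spread among libraries of 1 gene is small beside the distance between genes.

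Between conditions the levels moved far less. The highest group mean was 1.544 times the lowest for Tapbp and 1.527 times for Psmb10, and the ratio was 1.393 for H2-K1, 1.306 for Psmb9, 1.268 for B2m, 1.255 for Nlrc5 and 1.243 for H2-D1. It was 1.188 or less for Psmb8, Tap2 and Tap1. Untreated Col1a1-miR-29b cells were the highest group for 8 of the 10 genes, the exceptions being Tap2 (empty vector) and Psmb9 (CMV-miR-29b). The genes whose group means differed least were Tap1, with libraries from 93.18 to 127.7 CPM, Tap2, from 36.96 to 45.78 CPM, and Psmb8, from 36.35 to 48.86 CPM. Psmb9, from 15.51 to 30.77 CPM, had a within-group SD of 0.2387 on the log2 scale, larger than that of each other gene but H2-K1. TGF-β-treated empty vector cells were the lowest for 6, and TGF-β-treated CMV-miR-29b cells for Tap2, Psmb8, Psmb9 and Nlrc5.

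**Figure D2:**
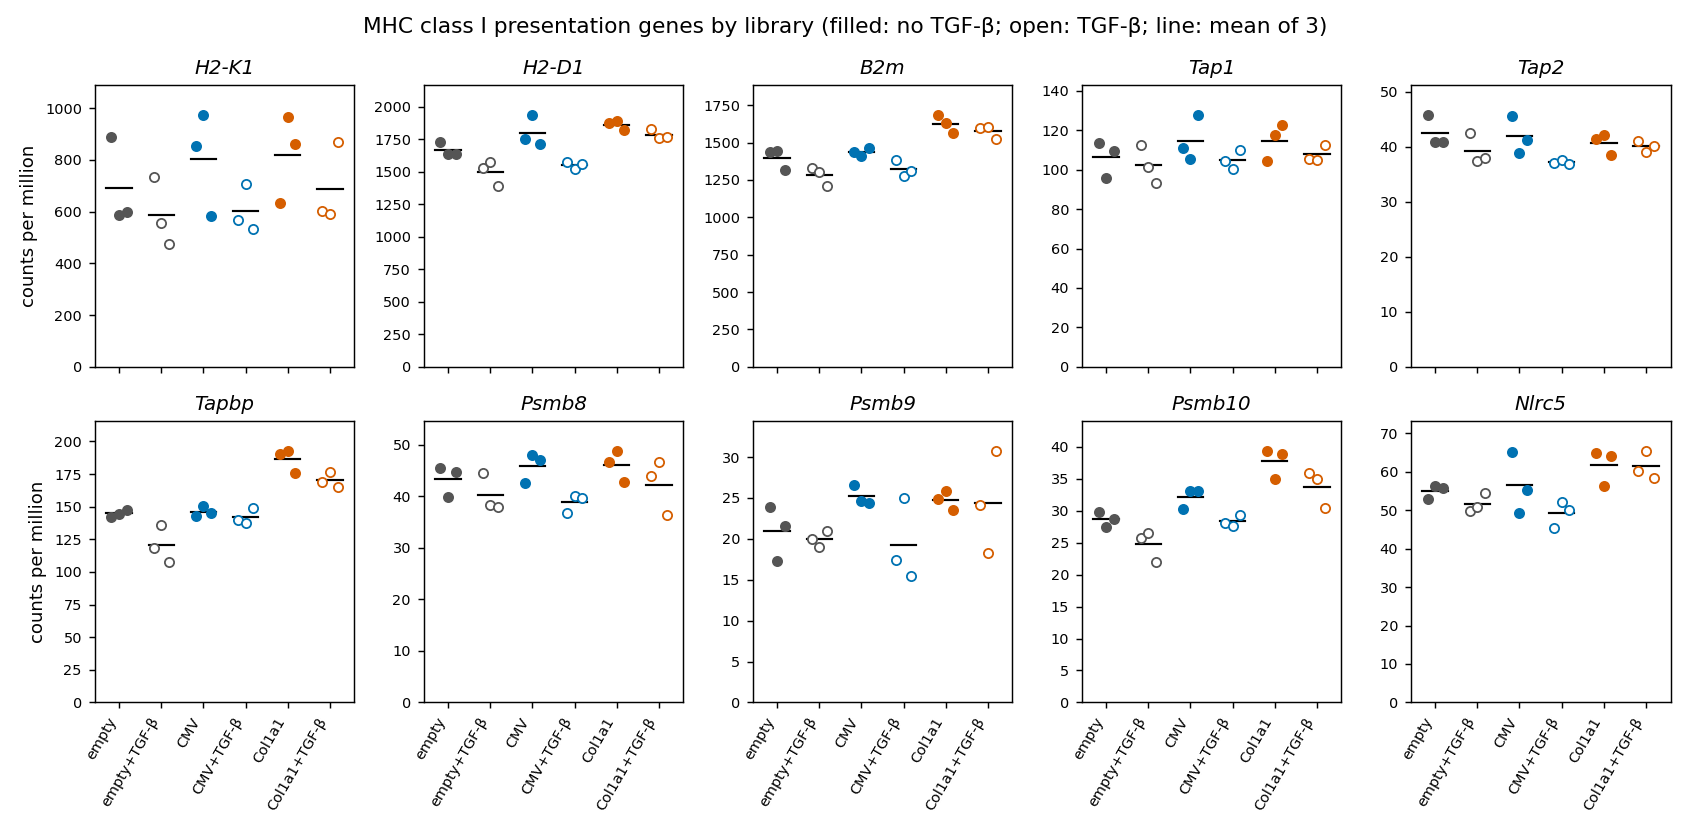
CPM of each of the 10 genes in all 18 libraries, 1 panel for each gene, with 1 point for each library (filled without TGF-β, open with it) and a line at the mean of 3 libraries. The 3 Col1a1-miR-29b libraries of Tapbp, from 176.2 to 192.9 CPM without TGF-β, stand clear of the empty vector libraries, from 142.5 to 147.8, while the H2-K1 libraries of 1 group scatter widely.

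Of the 10 genes, 7 lie on chromosome 17 (GRCm38 coordinates of the table): Tapbp at 33915899 to 33926197, H2-K1 at 33996017 to 34000347, Psmb9 at 34181987 to 34187764, Tap1 at 34187553 to 34197225, Psmb8 at 34197721 to 34201454, Tap2 at 34203527 to 34216321 and H2-D1 at 35262730 to 35267499. B2m lies on chromosome 2 at 122147686 to 122153083, and Nlrc5 and Psmb10 on chromosome 8 at 94434356 to 94527272 and 105935735 to 105938104. Psmb9 and Tap1 overlap at their 5′ ends on opposite strands, and how strand entered the counts is not given in the sources used here, so reads of the overlap cannot be assigned.

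The comparison of Col1a1-miR-29b with the empty vector asks how the genes stood in cells that received the collagen-responsive plasmid. In untreated cells B2m, Tapbp and Psmb10 rose, by 16.2%, 28.7% and 31.9%, and with TGF-β H2-D1, B2m, Tapbp and Psmb10 rose, by 19.1%, 23.02%, 40.9% and 36.4%. Called genes have an adjusted p under 0.05 in edgeR's quasi-likelihood test with Benjamini-Hochberg adjustment over all genes tested. Thus 3 of 10 members were called higher without TGF-β, where 2.57% of all genes were, and 4 of 10 with TGF-β, where 5.31% of all genes were. None was called lower. The median log2 fold change of the 10 was 0.19 without TGF-β, with 9 positive, and 0.25 with TGF-β, with 10 positive, against 0.018 and 0.02 over all genes. In bulk RNA, a change in the share of cells of a type and a change in RNA per cell cannot be told apart.

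Of the surface proteins, B2m, the light chain shared by all class I molecules, was at 1439, 1440 and 1313 CPM in empty vector libraries c, d and e and at 1683, 1628 and 1561 in Col1a1-miR-29b libraries c, d and f. With TGF-β it was at 1332, 1304 and 1208 in the empty vector libraries and at 1600, 1606 and 1522 with Col1a1-miR-29b. Each of the 6 libraries with Col1a1-miR-29b exceeded each of the 6 with the empty vector. The log2 fold change of B2m was 0.22 (SE 0.05, adjusted p = 0.0157) without TGF-β and 0.30 (SE 0.05, adjusted p = 0.00123) with it. The first of these lost its call when empty vector library e, Col1a1-miR-29b library c or Col1a1-miR-29b library d was left out, with adjusted p from 0.06678 to 0.07637, and under 4 other settings, among them the 2 groups fitted alone (0.05986). The second kept its call under all 29 alternatives.

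H2-D1, a classical heavy chain, was at 1727, 1637 and 1636 CPM with the empty vector and at 1877, 1894 and 1821 CPM with Col1a1-miR-29b. With TGF-β its values were 1533, 1579 and 1388 CPM against 1828, 1762 and 1769. The groups overlapped in neither condition. The log2 fold change was 0.16 (adjusted p = 0.0641) without TGF-β, which missed the threshold, and 0.25 (SE 0.05, adjusted p = 0.00403) with it. Without CMV-miR-29b library d, which is in neither group but in the shared fit, the first was 0.15 and was called, at adjusted p = 0.04669. The second lost its call when the 2 groups were fitted alone, at adjusted p = 0.0531.

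H2-K1, the other classical heavy chain, was not called in any comparison. Its libraries c, d and e were at 888.8, 588.2 and 597.4 CPM with the empty vector, and libraries c, d and f at 635.0, 964.6 and 860.3 with Col1a1-miR-29b. The scatter was within groups, and each library held 34547 to 74584 counts of the gene. The within-group SD of log2 CPM was 0.3176 for H2-K1 against 0.0611 for H2-D1. The 95% interval (normal approximation, as throughout) of the H2-K1 log2 fold change without TGF-β ran from -0.21 to 0.70, which includes the fold change of H2-D1. With TGF-β H2-K1 was at 734.6, 556.8 and 473.9 CPM with the empty vector and at 601.5, 592.5 and 869.3 CPM with Col1a1-miR-29b, again overlapping. Of the 100-base windows of their transcripts, 0.957% of those of H2-K1 and 3.59% of those of H2-D1 occur in transcripts of another gene, and reads from such stretches could be split between genes.

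Among the loading genes Tapbp differed most. Its values were 142.5, 144.4 and 147.8 CPM with the empty vector and 190.5, 192.9 and 176.2 CPM with Col1a1-miR-29b, and with TGF-β they were 118.7, 135.8 and 108.0 against 169.0, 176.9 and 164.9 CPM. The lowest Col1a1-miR-29b library, at 164.9 CPM, was above the highest empty vector library, at 147.8 CPM. The log2 fold change of Tapbp was 0.36 (SE 0.07, adjusted p = 0.00643) without TGF-β and 0.49 (SE 0.07, adjusted p = 0.000582) with it, and both kept their call under all 29 alternatives. The peptide transporter genes were not called. Tap1 had log2 fold changes of 0.11 (95% interval -0.06 to 0.28) and 0.08 (-0.09 to 0.25), and Tap2 had -0.06 (-0.20 to 0.07) and 0.03 (-0.11 to 0.17), without and with TGF-β.

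Of the immunoproteasome subunits Psmb10 rose and the other 2 were not called. Psmb10 was at 29.73, 27.38 and 28.74 CPM with the empty vector and at 39.36, 34.97 and 38.87 CPM with Col1a1-miR-29b. With TGF-β Psmb10 was at 25.72, 26.47 and 21.94 CPM against 35.85, 34.92 and 30.37 CPM. All 6 Col1a1-miR-29b libraries lay above all 6 empty vector libraries. The log2 fold change of Psmb10 was 0.40 (SE 0.08, adjusted p = 0.0116) and, with TGF-β, 0.45 (SE 0.08, adjusted p = 0.00273). Leaving out empty vector library d or adding a replicate block (without both f libraries) took the first past the threshold, to 0.06049 and 0.0908, and fitting the 2 groups alone took the second there, to 0.05684. Psmb8 had log2 fold changes of 0.09 (95% interval -0.09 to 0.27) and 0.07 (-0.11 to 0.25), and Psmb9 of 0.24 (-0.11 to 0.59) and 0.29 (-0.07 to 0.64).

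Nlrc5, the transactivator, was at 52.9, 56.24 and 55.74 CPM with the empty vector and at 64.73, 56.18 and 64.18 CPM with Col1a1-miR-29b, and with TGF-β at 49.7, 50.84 and 54.53 against 60.28, 65.43 and 58.32 CPM. The groups overlapped without TGF-β and not with it. The log2 fold changes of Nlrc5, 0.17 (adjusted p = 0.311) and 0.25 (adjusted p = 0.0886), did not pass the threshold, although the second did without CMV-miR-29b library c or d, at 0.04425 and 0.04982. Counted over the 10 genes, the Col1a1-miR-29b libraries lay wholly above the empty vector libraries for 4 genes without TGF-β (H2-D1, B2m, Tapbp and Psmb10), where 14.9% of all genes did, and for these and Nlrc5 with TGF-β, where 14.8% of all genes did.

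**Figure D3:**
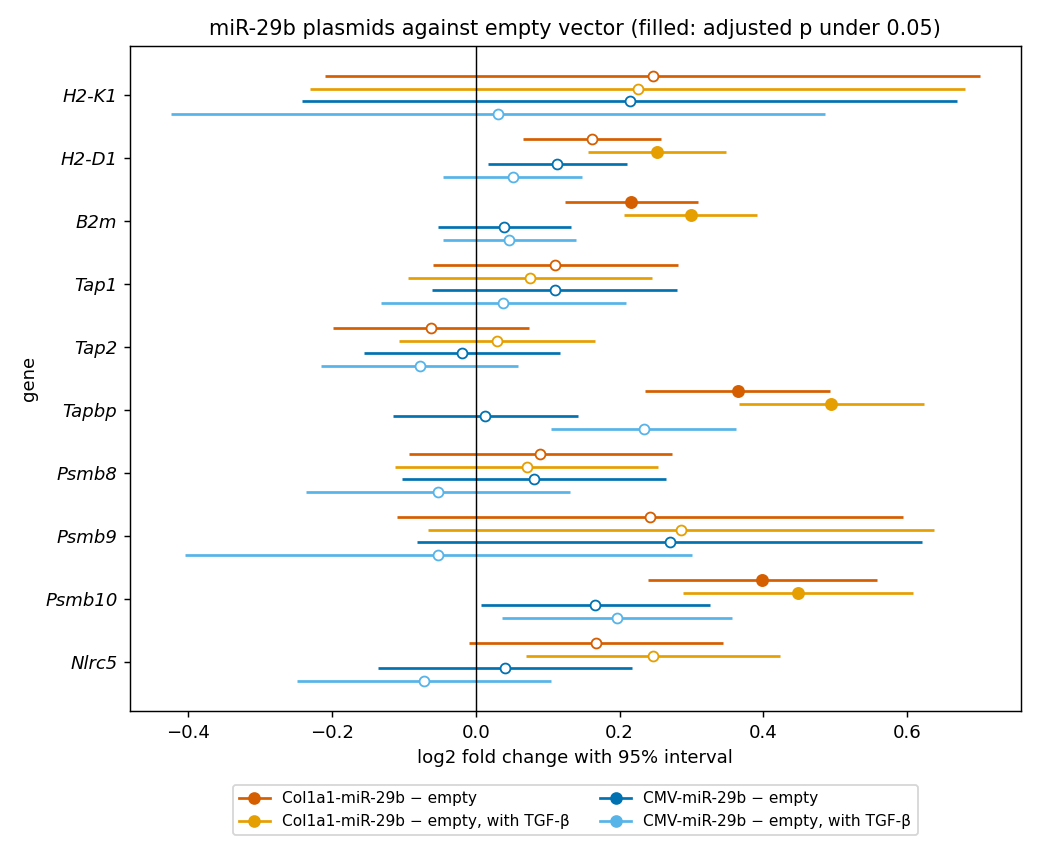
Log2 fold changes of the 10 genes between plasmids, without and with TGF-β, with 95% intervals (normal approximation) and filled points for adjusted p under 0.05. Col1a1-miR-29b against the empty vector has filled points for B2m, Tapbp and Psmb10 without TGF-β and for these and H2-D1 with it, and CMV-miR-29b against the empty vector has none.

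The summed fibroblast markers also differed between these groups. The largest of them were the matrix genes Fn1, Col1a1 and Col1a2, at medians of 1815, 1385 and 858.5 CPM. The paper reports collagen genes as raised by TGF-β and lowered by miR-29b, so the sum does not measure cell type apart from the treatments. The summed level of 12 fibroblast markers was 3460 to 3860 CPM in untreated Col1a1-miR-29b libraries against 4468 to 4923 CPM with the empty vector, and 5613 to 5775 against 7386 to 8470 CPM with TGF-β. The summed level of 14 immune cell markers was 17.26 to 19.62 against 16.93 to 18.36 CPM, and 15.49 to 17.76 against 13.77 to 16.39 CPM with TGF-β, and none of the 5 tested was called. In CMV-miR-29b cells, where no member was called, the fibroblast sum was also below the empty vector without overlap, at 3861 to 4460 CPM and, with TGF-β, at 6191 to 6878 CPM. The defining leukocyte marker Ptprc had 0 to 25 counts in the 18 libraries. The part of the shift in fibroblast markers in the results was not tested.

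The comparison of CMV-miR-29b with the empty vector asks the same of the CMV promoter, whose cells had the higher Mir29b-1 counts. No member was called without or with TGF-β, and the same test called 0.00473% and 0.00945% of all genes in either direction, which is 1 and 2 genes. At an unadjusted p under 0.05 there were 1 and 2 members of 10, against 1156 and 2531 of all 21161 genes. DESeq2 called 0 members in both, and 37 and 294 genes in all. Tapbp was at 142.9, 150.4 and 145.4 CPM with CMV-miR-29b and, with TGF-β, at 139.5, 137.6 and 149.1 CPM, so that the first overlapped the empty vector libraries and the second lay above them. Its log2 fold changes of 0.01 (95% interval -0.12 to 0.14) and 0.23 (adjusted p = 0.198) were not called, but without TGF-β-treated empty vector library d the second was, at adjusted p = 0.02837. B2m was at 1438, 1410 and 1461 CPM and, with TGF-β, at 1381, 1278 and 1310 CPM, and both overlapped the empty vector libraries. Psmb10 was at 30.21, 33.08 and 33.04 CPM and, with TGF-β, at 28.05, 27.64 and 29.27 CPM. These lay above the empty vector libraries in both conditions, with log2 fold changes of 0.17 and 0.20 (adjusted p = 0.912 and 0.358). The CMV-miR-29b libraries of Psmb9, at 26.62, 24.6 and 24.4 CPM, also lay above those of the empty vector, at 23.95, 17.24 and 21.54 CPM, with a log2 fold change of 0.27 (95% interval -0.08 to 0.62, adjusted p = 0.948). The share of all genes lying above without overlap was not computed for CMV-miR-29b, so these separations are description only. For Col1a1-miR-29b against the empty vector that share was 14.9% and, with TGF-β, 14.8%.

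Set directly against CMV-miR-29b, Col1a1-miR-29b cells had higher Tapbp without TGF-β and higher H2-D1 and B2m with TGF-β. This comparison shares the Col1a1-miR-29b libraries with the one above, so it is not separate evidence. Of the 10 members 1 was called higher without TGF-β, where 0.803% of all genes were, and 2 with TGF-β, where 0.912% of all genes were. Tapbp had a log2 fold change of 0.35 (SE 0.07, adjusted p = 0.0166) without TGF-β. It lost its call without Col1a1-miR-29b library c or d or CMV-miR-29b library c, with adjusted p from 0.0543 to 0.09846, and under 4 other settings (0.05237 to 0.1056). With TGF-β the log2 fold change was 0.25 (SE 0.05, adjusted p = 0.0178) for B2m and 0.20 (SE 0.05, adjusted p = 0.0496) for H2-D1. The call of B2m was lost without TGF-β-treated Col1a1-miR-29b library c or d or TGF-β-treated CMV-miR-29b library d or e (adjusted p from 0.06445 to 0.1115), and under 5 other settings (0.05656 to 0.181). The call of H2-D1 was lost in 15 of the 18 fits that left out 1 library, with adjusted p from 0.05237 to 0.2078, and under 8 other settings. Tapbp and Psmb10, with log2 fold changes of 0.26 (adjusted p = 0.0541) and 0.25 (adjusted p = 0.128) with TGF-β, did not pass the threshold. Leaving out TGF-β-treated empty vector library d or e brought Tapbp past it, at 0.01711 and 0.03373. Nlrc5, with a log2 fold change of 0.32 (adjusted p = 0.0841) with TGF-β, passed it without CMV-miR-29b library c, at 0.04762.

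The TGF-β comparison asks how the pathway stood after 24 h of the cytokine within each plasmid. Tapbp fell in empty vector cells and H2-D1 fell in CMV-miR-29b cells, and no member was called with Col1a1-miR-29b. All 10 log2 fold changes were negative within each plasmid, with medians of -0.12 for the empty vector, -0.08 for Col1a1-miR-29b and -0.19 for CMV-miR-29b, against 0.0023, -0.0056 and -0.0025 over all genes. All 10 stayed negative under DESeq2, its size factors and scaling by total counts, but some uncalled values changed sign under other alternatives. In Col1a1-miR-29b cells Nlrc5, at -0.008, did so in 8 of 29, Psmb9 in 2 and Tap2 in 1. With the empty vector Psmb9 did so in 1. In empty vector cells 1 of 10 members was called lower, where 2.01% of all genes were. Tapbp had a log2 fold change of -0.26 (SE 0.07, adjusted p = 0.0257, 95% interval -0.39 to -0.13), and its TGF-β-treated libraries, at 108.0 to 135.8 CPM, were below the untreated ones, at 142.5 to 147.8 CPM. Leaving out any of empty vector libraries c, d and e, or TGF-β-treated library c or e, took the call away, with adjusted p from 0.05447 to 0.1031, as did fitting the 2 groups alone (0.1845). H2-D1 had a log2 fold change of -0.15 (adjusted p = 0.0926) and was called without TGF-β-treated empty vector library d (0.0316) or CMV-miR-29b library d (0.03207). The groups did not overlap for 3 members, H2-D1, Tapbp and Psmb10, where 9.69% of all genes were lower without overlap. Sums of fibroblast and endothelial markers rose with TGF-β in every plasmid, the fibroblast sum being led by the matrix genes Fn1, Col1a1 and Col1a2, as above. The summed fibroblast markers were at 7386 to 8470 CPM against 4468 to 4923 CPM in empty vector cells, 5613 to 5775 against 3460 to 3860 CPM in Col1a1-miR-29b cells and 6191 to 6878 against 3861 to 4460 CPM in CMV-miR-29b cells. The 4 endothelial markers summed to 2.332 to 2.83 CPM against 0.936 to 1.425 CPM in empty vector cells, 2.088 to 2.517 against 0.9722 to 1.666 CPM in Col1a1-miR-29b cells and 2.385 to 3.028 against 1.382 to 1.852 CPM in CMV-miR-29b cells. Immune cell markers summed to 13.77 to 16.39 CPM against 16.93 to 18.36 CPM in empty vector cells, and their sums overlapped with the other plasmids. Epithelial sums overlapped within every plasmid. The part of these sums in the results was not tested.

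In CMV-miR-29b cells 1 of 10 members was called lower, where 1.87% of all genes were. H2-D1 went from 1753, 1937 and 1718 CPM to 1578, 1524 and 1560 CPM, without overlap, a log2 fold change of -0.21 (SE 0.05, adjusted p = 0.017, 95% interval -0.31 to -0.12). Its call was lost without CMV-miR-29b library d or TGF-β-treated CMV-miR-29b library d, at 0.07019 and 0.07289, and in 3 other settings, the 2 groups fitted alone and limma on FPKM with either pseudocount, at 0.0981 to 0.1144. Without overlap 5 members were lower (H2-D1, B2m, Tap2, Psmb8 and Psmb10), where 9.89% of all genes were, and 7 of 10 had an unadjusted p under 0.05, against 3310 of all 21161 genes. In Col1a1-miR-29b cells 0 members were called, where edgeR called 1.32% of all genes lower. There 0 members had an unadjusted p under 0.05, against 3025 of all 21161 genes, and DESeq2 called 0 members. There the log2 fold changes ran from -0.25 for H2-K1 to -0.01 for Nlrc5, and the groups overlapped for all 10.

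**Figure D4:**
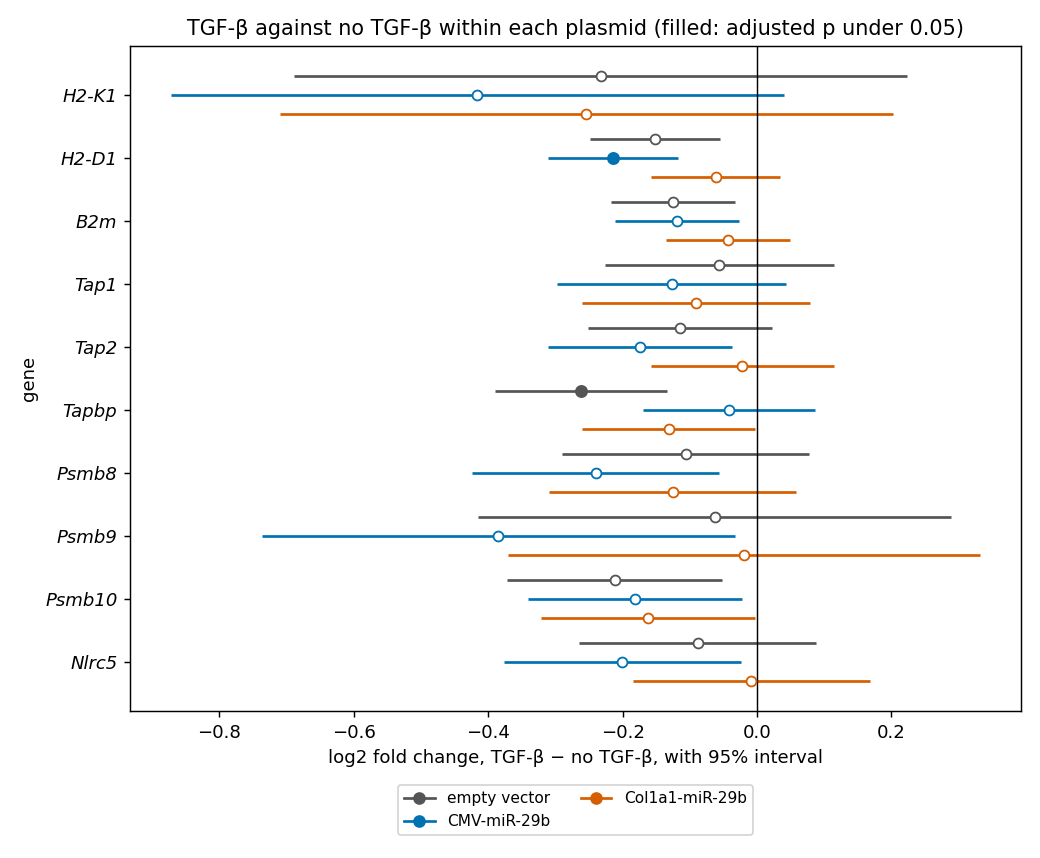
Log2 fold changes of the 10 genes with TGF-β within each plasmid, with 95% intervals (normal approximation) and filled points for adjusted p under 0.05. All 30 points lie below 0, and the filled ones are Tapbp in empty vector cells, at -0.26, and H2-D1 in CMV-miR-29b cells, at -0.21.

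A call in 1 plasmid and none in another does not show that the responses differ, and the difference was tested as an interaction. It called 0 members for Col1a1-miR-29b and 0 for CMV-miR-29b against the empty vector, with 0.0% and 0.0% of all genes called, and DESeq2 called 0 members in both and 21 and 19 genes in all. At an unadjusted p under 0.05 there were 0 and 1 members and 961 and 1129 genes in all. That member was Tapbp, whose response in CMV-miR-29b cells was 0.22 above that in empty vector cells on the log2 scale (95% interval 0.04 to 0.40, adjusted p = 0.922).

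The ratio of each immunoproteasome subunit to the standard subunit it replaces was taken from FPKM, since it compares genes. The ratio of Psmb10 to Psmb7 was 0.3822 ± 0.005804 (SD, n = 3) with the empty vector, 0.4782 (2 libraries, at 0.4568 and 0.4995) with Col1a1-miR-29b and 0.4345 ± 0.0215 (SD, n = 3) with CMV-miR-29b. With TGF-β it was 0.3359 ± 0.0392 (SD, n = 3), 0.448 (2 libraries, at 0.4365 and 0.4594) and 0.3955 ± 0.01852 (SD, n = 3) in the same order. The 2 Col1a1-miR-29b libraries were thus above every empty vector library in each condition. So were the CMV-miR-29b libraries, at 0.4096 or more against 0.3867 or less, and with TGF-β at 0.3822 or more against 0.3696 or less. The ratio of Psmb8 to Psmb5 had group means from 0.3395 to 0.3978, and that of Psmb9 to Psmb6 from 0.06085 to 0.07588. Psmb5, Psmb6 and Psmb7 were not called in any comparison, and of the 14 standard core subunits Psma1 alone was called by edgeR in any comparison, with a log2 fold change of 0.15 (adjusted p = 0.00715) for Col1a1-miR-29b against the empty vector with TGF-β.

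The other genes of the pathway were read from lists chosen for their roles, with earlier results of these data known. Of 5 genes for the proteasome activators and assembly, 1 was called higher for Col1a1-miR-29b against the empty vector, and with TGF-β 3 were called higher and 1 lower. Over all genes 2.57% and 5.31% were called higher without and with TGF-β, and 784 and 1615 of 21161 were called lower. Pomp, which assembles the proteasome, rose by 0.25 on the log2 scale (adjusted p = 0.0244) and by 0.29 with TGF-β (adjusted p = 0.00551). Psme1, a subunit of the activator PA28, rose by 0.29 with TGF-β (adjusted p = 0.0174), and Psme4, of the activator PA200, fell by 0.28 (adjusted p = 0.00156). Psme2, the partner of Psme1, had a log2 fold change of -0.27 (adjusted p = 0.0312) with TGF-β in CMV-miR-29b cells.

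Of 11 genes for peptide loading and trimming, 0 were called higher and 2 lower for Col1a1-miR-29b without TGF-β, and 0 higher and 3 lower with it. The same test called 784 and 1615 of all 21161 genes lower, and 2.57% and 5.31% higher. DESeq2 called 0 of the 11 higher and 2 lower without TGF-β, and 1 higher and 3 lower with it. The genes called lower by edgeR were chaperones of the endoplasmic reticulum and a peptidase. Hspa5, or BiP, fell by 0.20 on the log2 scale (adjusted p = 0.0277) and, with TGF-β, by 0.23 (adjusted p = 0.00633). Canx, calnexin, fell by 0.12 (adjusted p = 0.0308) and by 0.13 (adjusted p = 0.00886). The aminopeptidase Lnpep fell by 0.23 with TGF-β (adjusted p = 0.0189). Pdia3, which works beside tapasin in the loading complex, rose in Col1a1-miR-29b cells given TGF-β (log2 fold change 0.14, adjusted p = 0.027) and in CMV-miR-29b cells (0.16, adjusted p = 0.00993).

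Of the 18 other class I chains tested, 1 was called higher for Col1a1-miR-29b without TGF-β and 2 with it, where 2.57% and 5.31% of all genes were. With TGF-β 1, 0 and 2 of the 18 were called lower in empty vector, Col1a1-miR-29b and CMV-miR-29b cells. The shares of all genes there were 2.01%, 1.32% and 1.87%. H2-T22, a nonclassical chain, had a log2 fold change of 0.24 (adjusted p = 0.00584) for Col1a1-miR-29b with TGF-β, and TGF-β moved it by -0.29 (adjusted p = 0.002) in empty vector and -0.32 (adjusted p = 0.00104) in CMV-miR-29b cells. H2-Q4 fell by 0.19 (adjusted p = 0.00342) with TGF-β in CMV-miR-29b cells. H2-Q6, at about 1 CPM, had log2 fold changes of 0.73 (adjusted p = 0.0495) and 1.02 (adjusted p = 0.00538) for Col1a1-miR-29b. H2-Q and H2-T genes are near copies of each other, so their counts are uncertain. H2-T23 was not called in any comparison.

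Of 20 transcription factors of class I genes, 2 were called higher and 1 lower for Col1a1-miR-29b without TGF-β, and 1 and 1 with it. Over all genes 2.57% and 5.31% were called higher, and 784 and 1615 of 21161 were called lower. Stat2, of the type I interferon signal, rose by 0.28 (adjusted p = 0.0406) and by 0.28 (adjusted p = 0.0242) on the log2 scale. Nfya, of the NF-Y complex, rose by 0.61 (adjusted p = 0.0426) without TGF-β, and Nfkb1 fell by 0.25 (adjusted p = 0.0451) and by 0.22 (adjusted p = 0.0493). With TGF-β Stat2 fell by 0.41 (adjusted p = 0.00399) in CMV-miR-29b cells, and in empty vector cells Nfya rose by 0.98 (adjusted p = 0.0017) and Nfkb2 fell by 0.18 (adjusted p = 0.013). Irf1, an interferon-induced factor of class I genes, was not called in any comparison.

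Many of the listed interferon-induced genes outside the pathway were also higher with Col1a1-miR-29b, and some were lower with TGF-β. This list too was chosen with earlier results of these data known. Of 30, 19 were called higher for Col1a1-miR-29b without TGF-β and 18 with it, where 2.57% and 5.31% of all genes were. Of the 30, 0 were called lower, and the median log2 fold change was 0.41 in both. For CMV-miR-29b against the empty vector edgeR called 0 and 0 of the 30, with 9 and 3 at an unadjusted p under 0.05, and DESeq2 called 0 and 2. With TGF-β 5, 4 and 13 were called lower in empty vector, Col1a1-miR-29b and CMV-miR-29b cells, where 2.01%, 1.32% and 1.87% of all genes were. The chemokine Cxcl10 rose by 0.84 on the log2 scale for Col1a1-miR-29b with TGF-β (adjusted p = 6.34e-07), the antiviral GTPase Mx1 by 1.01 in untreated cells (adjusted p = 0.00751), and the GTPase Iigp1 by 1.09 (adjusted p = 0.00544). Gbp2, another GTPase, had a log2 fold change of -0.63 with TGF-β in empty vector cells (adjusted p = 5.9e-06). Of the interferons themselves Ifng was at 0 in all libraries, and Ifnb1 had 0 to 18 counts and was not called. Socs3, a feedback inhibitor of cytokine signals, rose by 0.39 (adjusted p = 0.0116) and by 0.43 (adjusted p = 0.00269) for Col1a1-miR-29b.

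**Figure D5:**
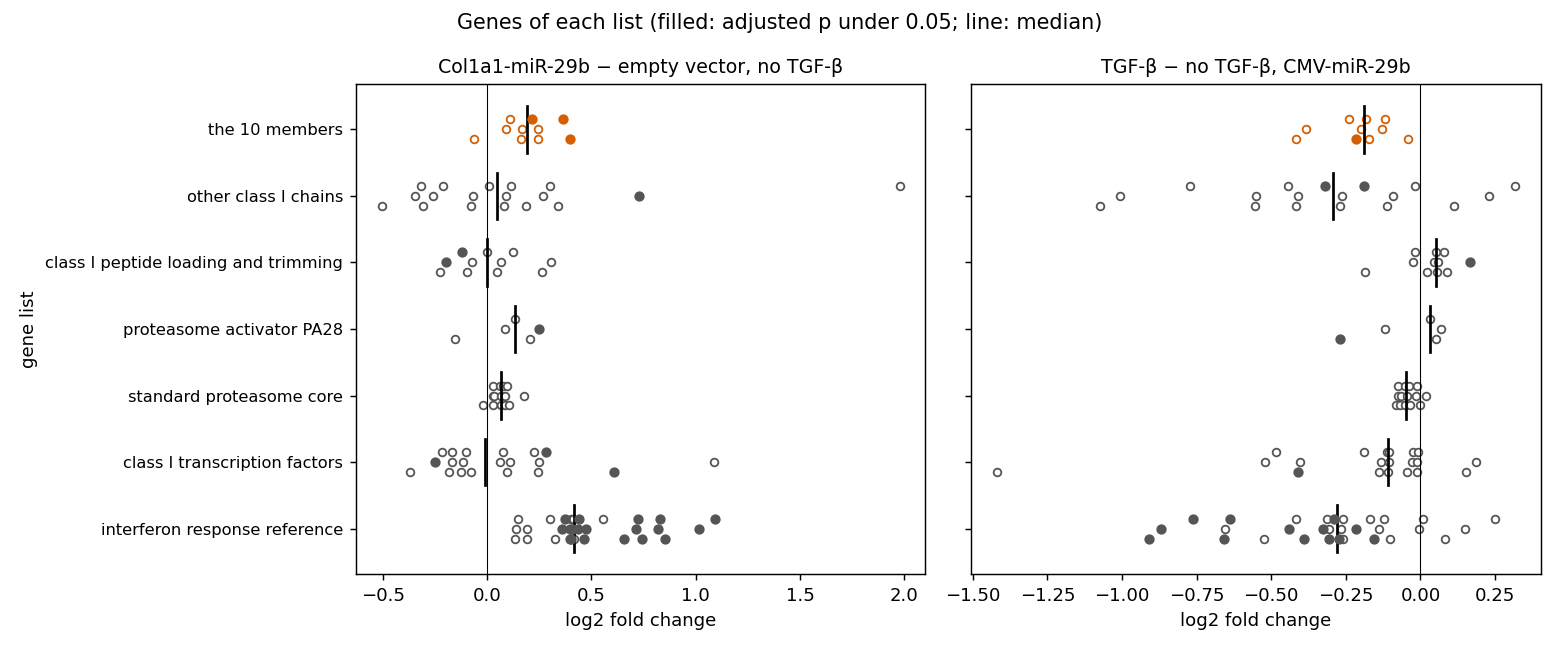
Log2 fold changes of the genes of 7 lists, 1 point for each tested gene (filled for adjusted p under 0.05) and a line at each list's median, for Col1a1-miR-29b against the empty vector without TGF-β and for TGF-β in CMV-miR-29b cells. In the first panel the median is 0.41 for 30 interferon-induced genes and 0.19 for the 10 class I pathway genes, and in the second it is -0.28 and -0.19.

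Among ligands that T cells and natural killer cells read beside class I, Cd274 (PD-L1, an inhibitory ligand) rose for Col1a1-miR-29b by 0.49 on the log2 scale (adjusted p = 0.0241) and, with TGF-β, by 0.76 (adjusted p = 0.00114). TGF-β moved it by -0.47 (adjusted p = 0.0257) in empty vector cells. Raet1d, a ligand of NKG2D, rose by 0.25 for Col1a1-miR-29b with TGF-β (adjusted p = 0.0375). Of the class II genes Cd74, the invariant chain, fell with TGF-β by 0.80 in empty vector cells (adjusted p = 0.0093) and by 0.79 in CMV-miR-29b cells (adjusted p = 0.0114). The table assigns 64 tested rows (63 gene symbols) to the KEGG pathway of antigen processing, which holds 6 of the 10 members. Of these rows 6 were called higher and 2 lower for Col1a1-miR-29b without TGF-β and 11 and 2 with it, members included. Over all genes 2.57% and 5.31% were called higher, and 784 and 1615 of 21161 lower. Of 57 symbols without the members, DESeq2 called 6 higher and 6 lower, and with TGF-β 10 and 2, where it called 2336 and 3491 genes in all. Ifi30, a lysosomal thiol reductase, rose by 0.48 for Col1a1-miR-29b with TGF-β (adjusted p = 0.00404).

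Across the 18 libraries the members varied together, though not equally. Pearson's r of log2 CPM for the 45 pairs of members was 0.4534 at the median and lay between 0.1264 and 0.9139, the highest for Tapbp and Psmb10, followed by 0.8934 for B2m and Tapbp. After subtraction of group means the median was 0.0576, from -0.6364 to 0.6335, with 27 of 45 positive, so most of the shared variation lay between groups. The genes outside all lists whose pattern was most like the members' mean z-score were Ifitm3 (r = 0.959), Dhx58 (r = 0.9386), Oas1g (r = 0.9188), Lgals9 (r = 0.9178) and Ccl5 (r = 0.9171) over the 18 libraries. These values describe libraries that share groups and carry no test.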

How the data were processed

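Poly(A) RNA of MEF cells was sequenced in 18 libraries of 6 groups. The authors trimmed reads with cutadapt, checked them with FastQC, mapped them with HISAT2 to the Ensembl release 96 mouse genome and assembled transcripts with StringTie. The labels name build mm9, but the coordinates in the deposited table are those of GRCm38. The deposited gene counts were tested as they are, and how they were taken from the assemblies is not given in the sources used here. Of the counts from 1 to 40, 35.2% were multiples of 4 (25% by chance). The deposited FPKM values, with 0.0001 in place of 0, were used to compare levels between genes. The 2 FPKM columns for Col1a1-miR-29b whose letter, f, is in no sample title were not used, so FPKM covers 16 libraries, while the f libraries entered through their counts by group.

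Counts were fitted with edgeR 4.0.16 in R 4.3.3 (filterByExpr, TMM scaling, 1 mean per group over all 18 libraries, quasi-likelihood F test, Benjamini-Hochberg adjustment over 21161 genes, threshold 0.05). Intervals are 95% by the normal approximation, from the SE implied by the F test, and cover the spread between libraries. They are narrower than intervals from the F test itself, so one can exclude 0 at an unadjusted p above 0.05. A count of 0 allows up to 3 counts, which covers counting error only. Alternatives were DESeq2 1.42.0, its size factors, total-count scaling, filters that keep genes with 1 count anywhere or 10 in each library, each comparison fitted alone, a replicate block, counts divided by 4, limma 3.58.1 on log2(FPKM + 1) and log2(FPKM + 0.1), and each library left out. Tests were checked on simulated counts with known changes. Summaries used Python 3.11.15, numpy 2.4.6, pandas 2.3.3, scipy 1.17.1 and matplotlib 3.10.9.

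The members and the gene lists were chosen with earlier results of these data known. Named were the 10 members, up to 3 called genes of each list and comparison with the largest fold changes and a mean of at least 1 CPM, a few genes named whatever their values (not all are reported here), and the 5 genes nearest in pattern. The KEGG list came from the table's pathway column. Promoter and microRNA sequences are from RefSeq.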

Additional observations from a re-analysis of the deposited data

How the results depend on the processing

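Over the 10 genes and 11 comparisons there were 110 results, each recomputed under 29 alternatives. Of the 3190 values 3110 kept their side of the threshold and 61 lost a call, 19 gained a call and 0 called values changed sign, while 116 values of uncalled results did. The calls of Tapbp for Col1a1-miR-29b against the empty vector in both conditions, and of B2m with TGF-β, held under all 29. Precision is limited by 3 libraries a group, most of all for H2-K1. For TGF-β in empty vector cells, with 1 member called, DESeq2 and total-count scaling called 2 and each comparison fitted alone 0, and leaving out 1 library gave 0 to 2. For TGF-β in CMV-miR-29b cells, with 1 called, the comparison fitted alone and limma on FPKM with pseudocounts 1 and 0.1 called 0, and leaving out 1 library gave 0 to 1. For Col1a1-miR-29b against the empty vector, the 4 called with TGF-β were 2 when fitted alone. For CMV-miR-29b with TGF-β, leaving out 1 library gave 0 to 1. For Col1a1-miR-29b against CMV-miR-29b without TGF-β, with 1 called, DESeq2 and total-count scaling called 2, the fit alone and both limma fits 0, and leaving out 1 library gave 0 to 1. With TGF-β, with 2 called, DESeq2 called 4, its size factors, total-count scaling and the filter at 1 count in any library 1, the fit alone, both limma fits and leaving out both f libraries (an alternative chosen after seeing the data) 0, the filter at 10 counts in every library and the counts divided by 4 called 3 each, and leaving out 1 library 0 to 3. The cause of these changes was not tested.

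The replicate block, which had to leave out both f libraries, called 1 in place of 3 members for Col1a1-miR-29b against the empty vector without TGF-β (B2m, at adjusted p = 0.06426, and Psmb10, at 0.0908, lost their calls), and 0 in place of 1 and 2 against CMV-miR-29b without and with TGF-β. It changed no other count. Libraries of the same letter shared little deviation from their group means. Over 13328 genes the deviations of 36 same-letter pairs correlated at a mean r of 0.00529 (from -0.0957 to 0.118, 3 over 0.1), against -0.00252 for 70 other pairs. These values do not show whether same-letter libraries came from the same experiment.

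Over all genes the number called in either direction varied more. For TGF-β it was 1245, 914 and 1047 in empty vector, Col1a1-miR-29b and CMV-miR-29b cells, with lowest values of 618, 394 and 527 and highest of 1753, 1317 and 1514. For Col1a1-miR-29b against the empty vector it was 1327 (161 to 2336) and, with TGF-β, 2738 (1072 to 3491), and against CMV-miR-29b 382 (18 to 1226) and 408 (13 to 1108). For CMV-miR-29b against the empty vector it was 1 (0 to 37) and 2 (1 to 294). The highest value was from DESeq2 throughout. Total-count scaling changed the split of higher to lower calls from 820 and 425 to 672 and 593 for TGF-β with the empty vector, from 543 and 784 to 679 and 643 and, with TGF-β, from 1123 and 1615 to 1469 and 1323 for Col1a1-miR-29b against the empty vector, and from 170 and 212 to 188 and 145 against CMV-miR-29b without TGF-β.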
